A study of Mus musculus with 116 samples.

Results

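Microglia are the resident macrophages of the brain. They arise in the yolk sac and enter the cortical wall during embryonic life, so they do not descend from the Emx1-expressing progenitors that were labelled in these mice. A set of genes that are best known from microglia were followed through every library of fluorescence-sorted cortical cells. These were Aif1, Cx3cr1, P2ry12, Csf1r, C1qa, C1qb, C1qc, Tyrobp, Ccl3 and Ccl4, that is 10 of the 53379 genes counted. They were chosen by name, with earlier results of these libraries in view, and the comparison that prompted the choice was not recorded. All their levels, fold changes and adjusted p-values between groups are therefore given as a description and support nothing on their own.

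Mosaic analysis with double markers (MADM) uses Cre-driven recombination between chromosomes to give labelled cells of known genotype, green with GFP, red with tdTomato, or yellow with both. Emx1-Cre limited the event to the dorsal forebrain lineage, and the cassettes lay on chromosome 7. Eed encodes a core subunit of Polycomb repressive complex 2, which methylates histone H3 at lysine 27. In control-MADM (label wt) every cell was Eed+/+. In Eed-MADM (label het) sparse green Eed-/-, yellow Eed+/- and red Eed+/+ cells lay in Eed+/- tissue. In cKO-Eed-MADM (label cKO) all Emx1-lineage cells of every colour were Eed-/-. The labels give the strain as CD1 for all groups, and the study's methods describe a mix of C57BL/6 and CD1. Embryos of 3 ages (labels E12, E13 and E16, called E12.5, E13.5 and E16.5 here) and pups at P0 were used, and each sample pooled the cortices of several animals. No gate against microglia was described. A library of a sorted population cannot separate more cells of a type from more RNA per cell, and this holds for every level below.

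Of 116 libraries, 92 had at least 1000000 uniquely aligned reads making up at least 60% of all reads, and the results rest on these. They held between 865832 and 7249098 reads on genes. Green cells gave 55 of them. At P0 there were 5 libraries of control-MADM cells, 9 of Eed-MADM cells and 4 of cKO-Eed-MADM cells, and in the same order 3, 5 and 4 at E16.5. There were 2, 2 and 4 at E13.5, and 5, 8 and 4 at E12.5. A further 20 libraries were yellow and 17 were red. Eed itself averaged 29.6 ± 3.06 read counts per 1000000 reads on genes (CPM; SD, n = 5) in green control-MADM cells at P0, 15.4 ± 3.14 in green Eed-MADM cells (n = 9) and 11.7 ± 3.59 in green cKO-Eed-MADM cells (n = 4). The control-MADM libraries (26 to 33.9 CPM) did not overlap those of Eed-MADM (11.3 to 19.6 CPM) or of cKO-Eed-MADM (8.70 to 16.4 CPM). At E12.5 green Eed-MADM libraries (31.1 to 85.2 CPM) overlapped those of control-MADM (75.2 to 152 CPM), whereas at E13.5 and E16.5 they did not. The study also left out samples with many reads in the deleted region of Eed, a step not taken here. Among red cells at P0, the library labelled cKO-Eed-MADM replicate 1 went against its label, with Eed at 33.3 CPM beside 5.56 CPM in replicate 2. That library and red control-MADM replicate 2 also stood apart in markers of other cells, and results that rest on them are given with and without them.

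The 10 genes fall into groups by function. Csf1r encodes the receptor for colony stimulating factor 1 and interleukin 34, on which microglial survival depends. Cx3cr1 encodes the receptor for the neuronal chemokine fractalkine, and P2ry12 a purine receptor by which microglial processes sense ATP and ADP. Tyrobp (DAP12) is the signalling adaptor of Trem2, and Aif1 encodes Iba1, an actin-bundling protein. C1qa, C1qb and C1qc encode the 3 chains of C1q, which starts the classical complement cascade and tags synapses. Ccl3 and Ccl4 encode chemokines that attract leukocytes and that are made rapidly by stimulated microglia. In GENCODE M21 on GRCm38, C1qb (chr4:136880129-136886187), C1qc (chr4:136889804-136893065) and C1qa (chr4:136895917-136898803) lie side by side on the minus strand. Ccl3 (chr11:83647844-83649355, minus strand) and Ccl4 (chr11:83662584-83664683, plus strand) are neighbours as well. The annotated span of Cx3cr1 crosses 9 other genes, P2ry12 lies within Med12l and Csf1r overlaps Hmgxb3, and strand was not used to assign reads here, so some reads of these 3 genes could stem from an overlapping gene.

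Promoter sequence was at hand in RefSeq (GRCm38.p6) for 6 of the 10 genes, namely Aif1, C1qb, C1qc, Ccl3, Cx3cr1 and P2ry12. The 250 bases before the annotated start of C1qb, C1qc and Ccl3 are shown because the complement genes and the chemokines parted in Eed-MADM cells below. Capitals mark the core of the site of PU.1, the factor that directs macrophage development (GAGGAA, or TTCCTC where it lies on the other strand). The windows are chr4:136886201-136886450, chr4:136892915-136893164 and chr11:83649379-83649628, all on the minus strand, written 5′ to 3′ along the gene.
C1qb: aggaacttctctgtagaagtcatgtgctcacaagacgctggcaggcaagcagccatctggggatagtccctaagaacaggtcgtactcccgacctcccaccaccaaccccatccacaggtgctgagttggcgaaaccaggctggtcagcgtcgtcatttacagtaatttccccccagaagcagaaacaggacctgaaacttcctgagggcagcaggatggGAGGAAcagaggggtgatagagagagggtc
C1qc: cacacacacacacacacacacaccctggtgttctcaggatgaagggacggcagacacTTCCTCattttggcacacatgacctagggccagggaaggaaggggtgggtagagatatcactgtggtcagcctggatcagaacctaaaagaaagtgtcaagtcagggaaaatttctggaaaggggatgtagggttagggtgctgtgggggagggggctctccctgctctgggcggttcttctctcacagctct
Ccl3: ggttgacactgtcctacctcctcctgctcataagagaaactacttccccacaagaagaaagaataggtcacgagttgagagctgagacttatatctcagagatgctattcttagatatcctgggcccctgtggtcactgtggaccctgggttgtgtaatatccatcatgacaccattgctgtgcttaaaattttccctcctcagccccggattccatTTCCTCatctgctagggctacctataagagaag
The core began at position -30 in C1qb, at -193 in C1qc and at -33 in Ccl3, counted from the RefSeq start, which for C1qc lies within the longer GENCODE span of the gene. It was found on either strand in 4 of the 6 windows (Aif1, C1qb, C1qc and Ccl3) and in 23.1% of 27025 promoters of the same length. The letters for AP-1 (TGANTCA, 6.87% of promoters), CRE (TGACGTCA, 1.62%) and a TATA box (TATAAA, 13%), searched on both strands, were in none of these 6 windows. A match is a stretch of letters and no evidence of binding.

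The summed level of the 10 genes was low in the embryo and higher at birth. Over the 29 libraries of P0 the sum had a median of 78.2 CPM. The median was 14 CPM over 18 libraries at E16.5, 4.65 CPM over 18 at E13.5 and 4.81 CPM over 27 at E12.5. No read of any of the 10 genes was found in 6 of the E12.5 libraries and in 1 each of E13.5 and E16.5. Reads of all 10 genes were found together in 12 of the 29 libraries at P0 and in 3 of the 18 at E16.5. The sum passed 100 CPM in 11 libraries at P0, in 2 at E16.5 and in 1 at E12.5. Depth set the lower limit, since 3 reads stood for 0.444 to 0.928 CPM at E16.5 and for 1.26 to 3.13 CPM at E12.5. The plot of summed levels by library shows these values by age, paradigm and colour.

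**Figure D1:**
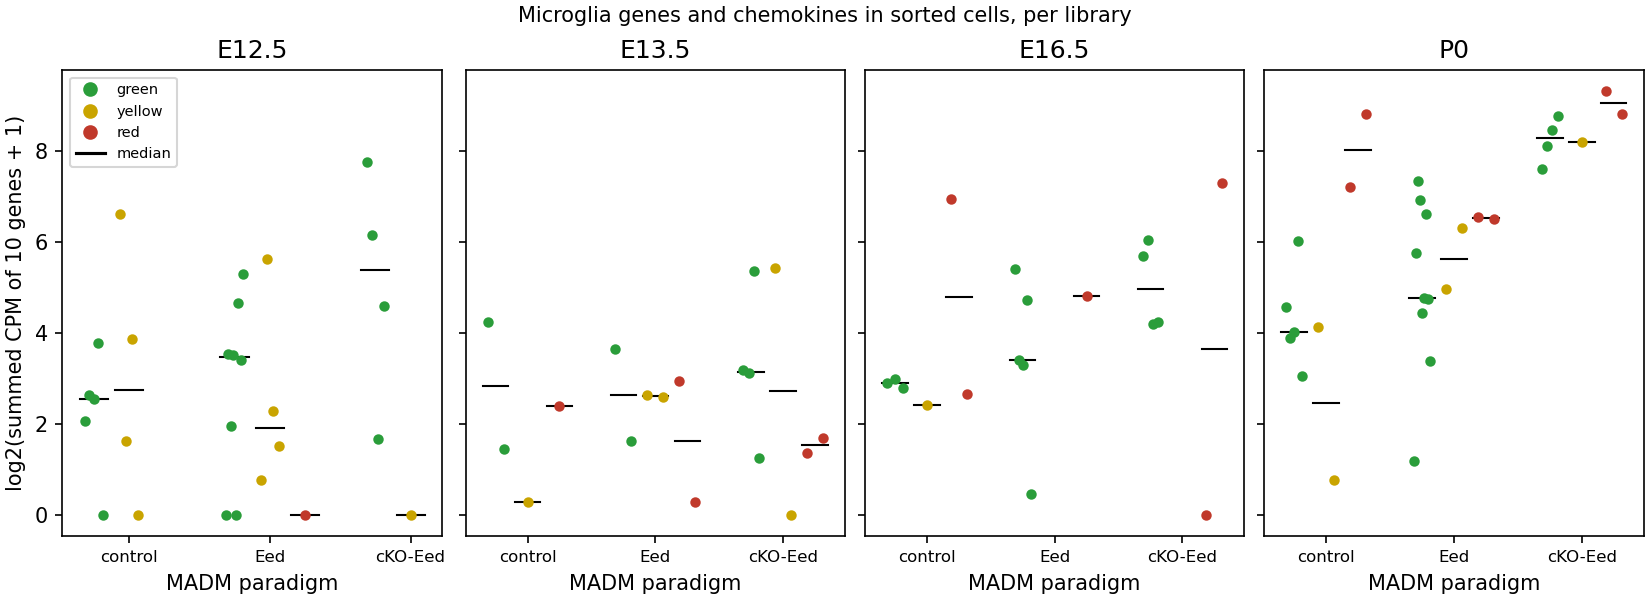
Summed level of the 10 genes in every library, as log2(CPM + 1) on the vertical axis, by MADM paradigm (horizontal axis), age (panels) and colour of the sorted cells (point colour), with the group median as a bar. At P0 the 4 green cKO-Eed-MADM libraries (195 to 435 CPM) lie above all 5 green control-MADM libraries (7.31 to 64.0 CPM), and the red control-MADM libraries lie at 148 and 454 CPM.

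In green cells at P0 the summed level was highest in cKO-Eed-MADM. It averaged 24.6 ± 22.7 CPM (SD, n = 5) for control-MADM, 57.6 ± 56.4 for Eed-MADM (n = 9) and 315 ± 103 for cKO-Eed-MADM (n = 4), so that cKO-Eed-MADM stood 12.8-fold above control-MADM and 5.48-fold above Eed-MADM. The cKO-Eed-MADM and control-MADM libraries did not overlap, whereas the Eed-MADM libraries ran from 1.26 to 162 CPM and covered the whole control range. Of the 10 genes, 9 passed the filter of a mean count over 10 in these libraries and Aif1 did not. In edgeR's quasi-likelihood test with Benjamini-Hochberg adjustment, 7 of the 9 were higher in cKO-Eed-MADM than in control-MADM at an adjusted p under 0.05, where 14.2% of the 14161 genes tested were higher and 24.2% differed in either direction. The median log2 fold change was 3.86 over the 9 genes and -0.01 over all genes tested. With control-MADM and Eed-MADM libraries alone, 7 of these 9 genes passed the filter. Ccl3 and Ccl4 passed it only through the cKO-Eed-MADM libraries. The genes were also chosen with earlier results in view, so these counts describe them and are no test of them.

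Among the receptors, Csf1r was at 27.4, 27.8, 83.8 and 87.4 CPM in the 4 green cKO-Eed-MADM libraries. In the 5 control-MADM libraries it was at 3.84, 3.57, 1.5, 3.96 and 1.66 CPM, and in the 9 Eed-MADM libraries it ran from 0.253 over a median of 6.28 to 27.3 CPM. Each cKO-Eed-MADM library was thus higher than each library of both other paradigms. The log2 fold change of Csf1r was 4.28 ± 0.73 (SE) against control-MADM (adjusted p = 0.000195) and 2.42 ± 0.55 against Eed-MADM (adjusted p = 0.00347). Cx3cr1 was at 23.0, 20.9, 54.8 and 57.0 CPM in cKO-Eed-MADM and at 2.50, 2.86, 2.17, 1.67 and 3.99 CPM in control-MADM. Here 1 Eed-MADM library (replicate 3, 35.7 CPM) lay within the cKO-Eed-MADM range, and the median of the 9 was 4.25 CPM. The log2 fold change was 3.86 ± 0.83 against control-MADM and 2.10 ± 0.64 against Eed-MADM, where the call was lost with no filter on low counts, with only these 2 paradigms in the fit (adjusted p = 0.0503) and without cKO-Eed-MADM replicate 3 or 4. P2ry12 was at 17.5, 19.1, 27.8 and 31.1 CPM in cKO-Eed-MADM. It ran from 0 to 4.17 CPM in control-MADM and from 0 to 19.8 CPM in Eed-MADM. Its log2 fold change was 4.55 ± 1.27 against control-MADM, a call lost with no filter on low counts (adjusted p = 0.0519), and 2.36 ± 0.93 against Eed-MADM, where it did not pass (adjusted p = 0.0828).

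Tyrobp was at 20.4, 16, 31.3 and 18.7 CPM in green cKO-Eed-MADM cells and at 1.17, 2.50, 2.67, 5.00 and 1.33 CPM in control-MADM cells. The Eed-MADM libraries reached 12.6 CPM, below the lowest cKO-Eed-MADM library. The log2 fold change was 3.09 ± 0.77 against control-MADM and 1.83 ± 0.62 against Eed-MADM (adjusted p = 0.0383). The latter call was lost in DESeq2, with no filter on low counts and without any one of 6 libraries. Aif1 was the lowest of the 10 genes in cKO-Eed-MADM, at 2.78 to 6.65 CPM, and lay at 0 to 2.34 in control-MADM and at 0 to 2.03 in Eed-MADM. Every cKO-Eed-MADM library exceeded every library of the other paradigms for Aif1 too, but the gene was not tested in this fit.

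The C1q genes were higher in the same libraries. C1qa was at 32.4, 34.1, 35.6 and 46.2 CPM in cKO-Eed-MADM and between 0 and 7.29 CPM in control-MADM, with a log2 fold change of 3.88 ± 1.0. C1qb was at 26.9, 63.7, 50.0 and 88.1 CPM against 0 to 11.2 CPM, with a log2 fold change of 4.11 ± 1.18. C1qc was at 26.7, 47.0, 44.1 and 67.8 CPM against 0 to 20.2 CPM, and its log2 fold change of 3.09 ± 1.18 did not pass (adjusted p = 0.0665). No library of cKO-Eed-MADM overlapped the control-MADM libraries for these 3 genes. The control library with 20.2 CPM of C1qc (replicate 5) was also the highest control for C1qa and C1qb. Against Eed-MADM, C1qa passed (log2 fold change 2.64 ± 0.78), while C1qb (2.43 ± 0.89, adjusted p = 0.0669) and C1qc (2.14 ± 0.94, adjusted p = 0.126) did not. The C1qa call was lost in DESeq2, with no filter on low counts, without cKO-Eed-MADM replicate 4 and with the replicate number as a block (adjusted p = 0.0764).

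Of the 9 genes tested, the chemokines had the largest fold changes between the mutant paradigms. Ccl3 was at 10.3, 23.0, 16.53 and 16.9 CPM and Ccl4 at 5.15, 22.6, 7.20 and 15.6 CPM in the 4 green cKO-Eed-MADM libraries. In the 9 green Eed-MADM libraries, Ccl3 had no read in 6 and at most 1.75 CPM, and Ccl4 had no read in 8 and at most 0.848 CPM. Among the 5 control-MADM libraries, Ccl3 was at 4.34 and 7.29 CPM in replicates 1 and 5 and at 0 in the other three, and Ccl4 was at 2.84 and 2.08 CPM in those 2 replicates and at 0 to 0.536 CPM in the others. Against Eed-MADM the log2 fold changes in cKO-Eed-MADM were 5.14 ± 1.02 for Ccl3 (adjusted p = 0.00103) and 6.59 ± 0.93 for Ccl4 (adjusted p = 1.78e-05). Against control-MADM they were 2.84 ± 1.11 for Ccl3, which did not pass (adjusted p = 0.0675), and 3.53 ± 0.94 for Ccl4, which passed (adjusted p = 0.00756). The Ccl4 call against control-MADM was lost in DESeq2 and with the replicate number as a block, where its adjusted p reached 0.101.

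All 9 genes tested at P0 lay higher in every cKO-Eed-MADM library than in every control-MADM library, as did 10.3% of all genes tested. Against Eed-MADM this held for 5 of the 9 (Csf1r, C1qa, Tyrobp, Ccl3 and Ccl4), as for 6.03% of all genes tested. Of the 9 genes, 6 were called higher against Eed-MADM, where 11.2% of all genes tested were higher and 19.5% differed. Eed-MADM and control-MADM share these cKO-Eed-MADM libraries as their partner, so both counts rest on the same 4 libraries. The heatmap of P0 libraries and the plot of fold changes show these patterns gene by gene.

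**Figure D2:**
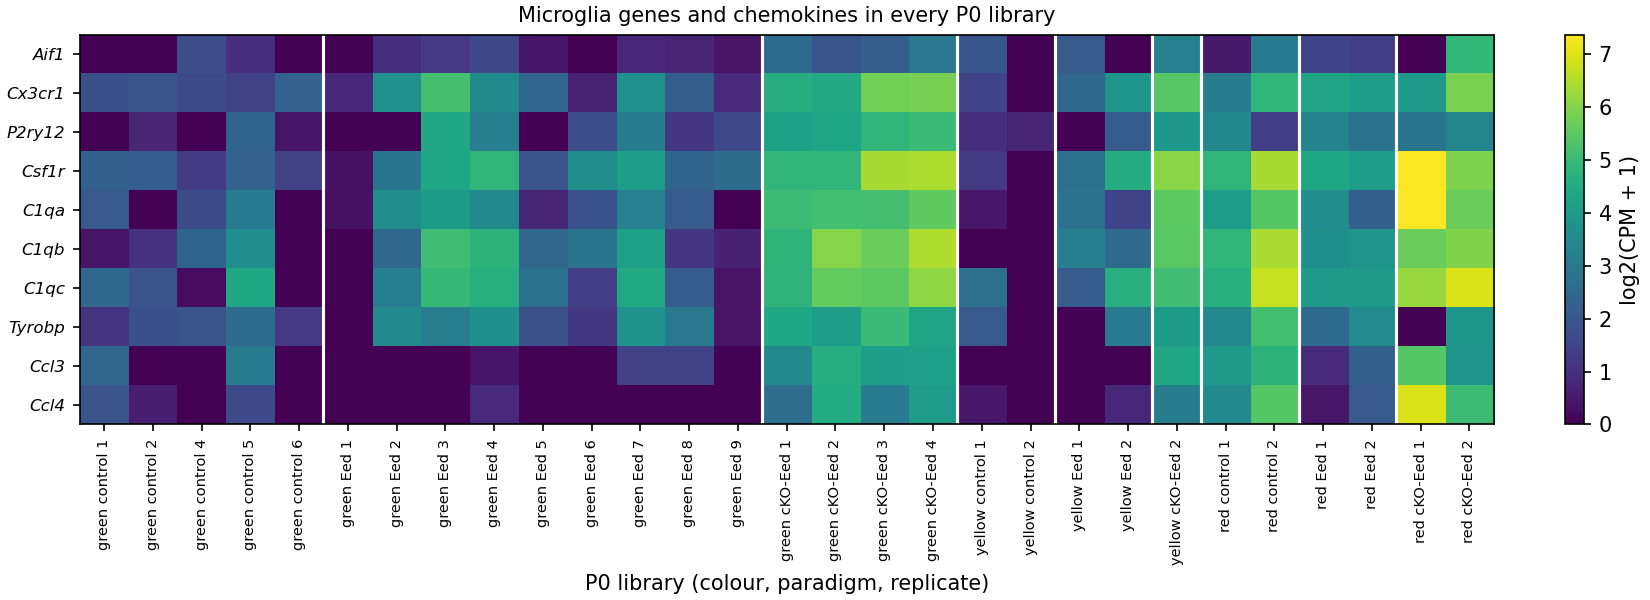
Level of each gene (rows) in every P0 library (columns, by colour, paradigm and replicate) as log2(CPM + 1), given by the colour scale, with white lines between groups. Ccl3 and Ccl4 are dark in nearly all green Eed-MADM libraries (highest 1.75 and 0.848 CPM), several of which hold C1qb and Csf1r (highest 33.6 and 27.3 CPM).

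**Figure D3:**
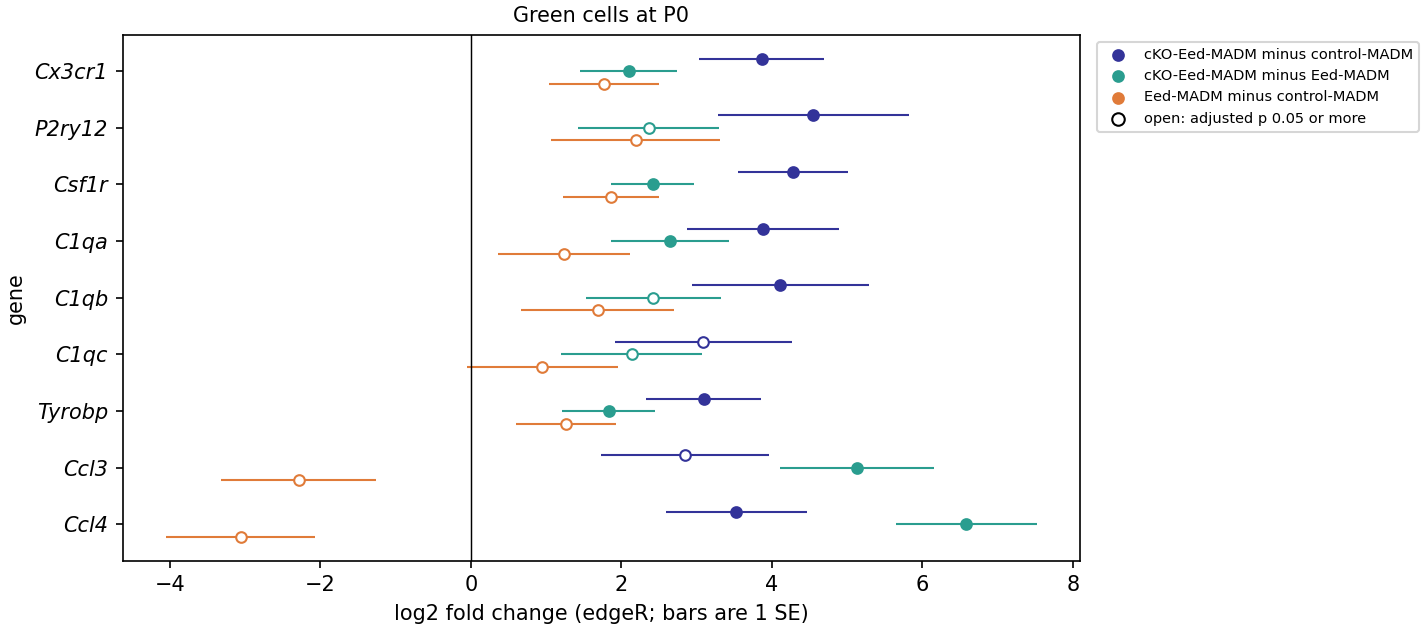
Log2 fold change in green cells at P0 (horizontal axis; points with 1 SE) for the 9 genes tested (vertical axis), in 3 comparisons of paradigms; filled points passed an adjusted p of 0.05 and open points did not. Ccl3 and Ccl4 are the sole genes below 0 for Eed-MADM minus control-MADM, at -2.29 and -3.06.

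Between Eed-MADM and control-MADM green cells at P0, 0 of the 9 genes were called by edgeR and 0 by DESeq2, where edgeR called 1.75% of all genes tested. At an unadjusted p under 0.05 the count was 4 of 9. Those were Csf1r (log2 fold change 1.86 ± 0.64) and Cx3cr1 (1.77 ± 0.73) on the higher side and Ccl3 (-2.29 ± 1.03) and Ccl4 (-3.06 ± 0.99) on the lower side. The green cells of both mutant paradigms were Eed-/-, and the tissue around them differed. Their 9 tested genes differed by a median log2 fold change of 2.42, against -0.01 over all genes tested.

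The share of chemokine reads among the reads of the 10 genes was also compared, since it sets the chemokines against the other 8 genes of the same library. In green cells at P0, Ccl3 and Ccl4 gave 91 of 656 reads in control-MADM (13.9%), 26 of 2760 for Eed-MADM (0.942%) and 518 of 6101 for cKO-Eed-MADM (8.49%). By library, among those with at least 100 reads of the 10 genes, the share ran from 0 to 6.76% in 7 Eed-MADM libraries and from 6.68 to 16.46% in 4 cKO-Eed-MADM libraries, and was 14.7% and 31.6% in 2 control-MADM libraries. The other 3 control-MADM libraries held 3 chemokine reads among 213 reads of the 10 genes (1.41%), within the Eed-MADM range, so the control share rested on 2 libraries and was 9.23% without replicate 1. The ranges of the mutant paradigms overlapped slightly, and the control-MADM libraries (0 to 31.6%) covered those of both. In yellow cells the share was 0.719% in Eed-MADM (n = 2) and 9.17% in cKO-Eed-MADM (n = 1). In red cells, which are Eed+/+ in Eed-MADM, it was 4.51% in Eed-MADM, 15.5% in control-MADM and 19.1% in cKO-Eed-MADM (n = 2 each). By library it was 1.33% and 7.77% in red Eed-MADM, 16.6% and 15.1% in red control-MADM and 26.1% and 10.1% in red cKO-Eed-MADM. Without the 2 red libraries that stood apart the share was thus 16.6% in control-MADM and 10.1% in cKO-Eed-MADM. Over all reads of a group, the share was lower in Eed-MADM than in cKO-Eed-MADM in all 3 colours. No test was run on it, since it was built after the levels had been seen.

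**Figure D4:**
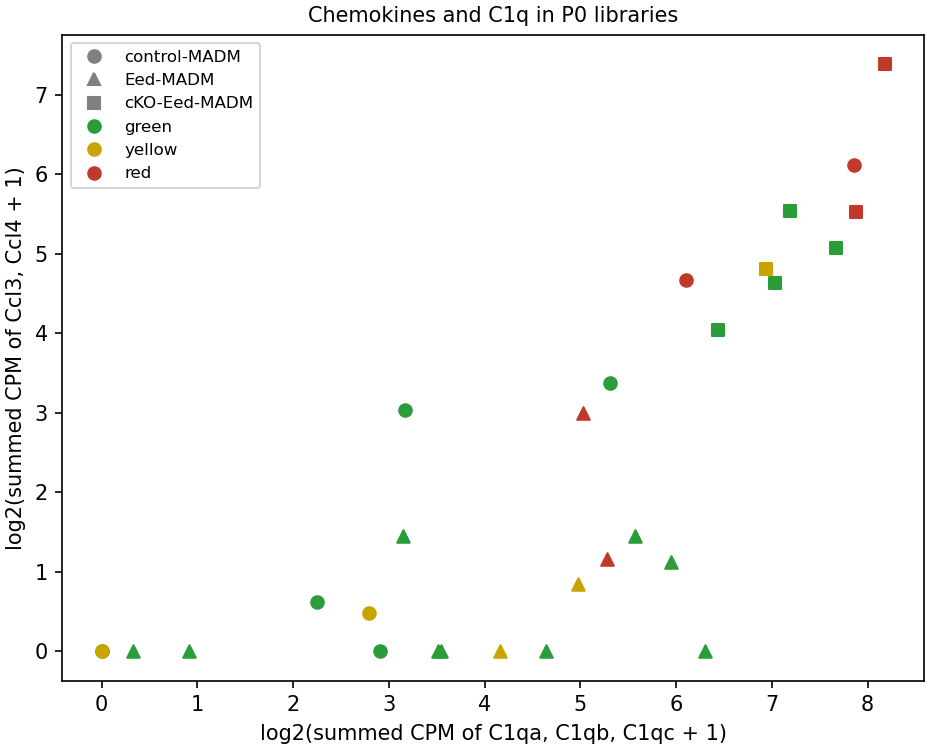
Summed level of Ccl3 and Ccl4 (vertical axis) against that of C1qa, C1qb and C1qc (horizontal axis) in the 29 P0 libraries, both as log2(summed CPM + 1), with paradigm as symbol and colour of the sorted cells as point colour. Green Eed-MADM libraries (triangles) run along the bottom, with chemokine shares of the 10 genes' reads of 0 to 6.76%, while cKO-Eed-MADM libraries (squares) lie at the upper right. Control-MADM libraries (circles) lie in both places, the red ones toward the upper right and some green ones along the bottom.

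Per kilobase of exon, C1qb was the highest of the 10 genes in green cKO-Eed-MADM cells at P0. It averaged 52.5 ± 23.5 CPM per kb, followed by C1qa (35.6 ± 5.98), Tyrobp (32.4 ± 10.1), C1qc (24.0 ± 8.72), Ccl3 (21.8 ± 6.75), Ccl4 (19.2 ± 12.2), Csf1r (9.80 ± 5.80), P2ry12 (9.38 ± 2.59), Cx3cr1 (8.64 ± 4.36) and Aif1 (2.95 ± 1.09; all SD, n = 4). Each gene overlapped the next in this order, save that Cx3cr1 and Aif1 did not overlap. In green Eed-MADM cells C1qb was again first (9.58 ± 11.3 CPM per kb, n = 9), but Ccl3 (0.555 ± 0.986) and Ccl4 (0.143 ± 0.428) had ranks 8 and 10. In green control-MADM cells Tyrobp came first (3.80 ± 2.30, n = 5) and Ccl3 (3.04 ± 4.38) had rank 3, with all neighbours overlapping. Smart-Seq2 reads cover whole transcripts, but coverage along these genes was not examined.

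Other genes of microglia, grouped in lists drawn up with earlier results known, were compared in the same fit at P0. Of 21 further microglia genes, 15 were tested and 13 rose in cKO-Eed-MADM against control-MADM, with a median log2 fold change of 2.83, where 14.2% of all genes tested were higher and the median was -0.01. Fcrls (3.91 ± 0.80), an Fc receptor-like protein of microglia, Cd53 (4.25 ± 0.98), Olfml3 (2.44 ± 0.59) and Laptm5 (3.90 ± 0.97) were among them. Tmem119 (3.75 ± 1.11) and Trem2 (4.01 ± 1.09) rose too. Against Eed-MADM, 7 of the 15 rose, where 11.2% of all genes tested were higher. Not all of these are silent in the labelled lineage, since Sall1 was at 46.7 ± 8.00 CPM in green control-MADM cells (SD, n = 5).

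Genes of activated or axon tract microglia were called in part. Of 9 such genes, 6 were tested and 3 rose against control-MADM (14.2% of all genes did), namely Apoe (2.00 ± 0.35), Spp1 (4.77 ± 1.26) and Igf1 (3.06 ± 1.08). Apoe was at 1105 ± 543 CPM in green control-MADM cells and at 4479 ± 1692 CPM in green cKO-Eed-MADM cells, far above the microglia genes, and is also made by radial glia and astrocytes. Spp1 was at 0.645 ± 0.841 and 18.5 ± 4.15 CPM in the same groups.

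Of 3 ligands of Csf1r and Cx3cr1, Cx3cl1 (fractalkine, 1.80 ± 0.29) and Csf1 (0.85 ± 0.27) rose against control-MADM, and Il34 (2.12 ± 0.82, adjusted p = 0.0623) did not pass. Cx3cl1, a neuronal product, was at 28.3 ± 11.6 CPM for control-MADM, 43.5 ± 15.4 for Eed-MADM and 97.9 ± 11.3 for cKO-Eed-MADM. Of 13 other chemokines and cytokines, 1 was tested, Ccl2, which rose against control-MADM (3.89 ± 1.34). Of 5 complement genes beyond C1q, 2 were tested and C4b, the next component of the classical pathway, rose (2.69 ± 0.78).

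Most genes of engulfment and all tested immediate early genes rose as well. Of 8 engulfment genes, 7 were tested and 6 rose, beside 14.2% of all genes tested, among them Gas6 (4.21 ± 0.30) and Pros1 (2.62 ± 0.49), which bridge phosphatidylserine to TAM receptors, the TAM receptor Mertk (2.81 ± 0.58) and the lysosomal genes Ctsd (1.35 ± 0.18) and Ctsb (0.48 ± 0.13). Of 10 immediate early and heat shock genes, 8 were tested and all 8 rose, beside the same 14.2%, with Fos at 2.38 ± 0.17, Junb at 2.35 ± 0.24 and Atf3 at 4.46 ± 0.69. Fos was at 830 ± 113 CPM for control-MADM, 1654 ± 331 for Eed-MADM and 4301 ± 976 for cKO-Eed-MADM. These genes are induced in many cell types, and their part in the levels of Ccl3 and Ccl4 was not tested.

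Markers of other cells moved with the comparison as well. Of 4 meningeal genes, 3 were tested and all 3 rose, namely Dcn (4.70 ± 0.67), Col1a2 (3.13 ± 0.46) and Col1a1 (3.22 ± 0.60), and the summed level went from 7.17 to 14 CPM in control-MADM to 86.9 to 177 CPM in cKO-Eed-MADM. Of 8 genes of border-associated macrophages, 1 was tested and it rose (Stab1, 2.96 ± 0.94), and the sum was 0.715 to 16.7 CPM in control-MADM and 10.7 to 23.5 CPM in cKO-Eed-MADM, with Mrc1 at no more than 3.13 CPM. Of 5 red blood cell genes tested none passed, and their sums were 2.16 to 226 CPM and 1.10 to 51.4 CPM. Endothelial genes summed to 2.34 to 17.3 CPM and 14.0 to 44.9 CPM, with 1 of 6 tested and not called, and of 3 pericyte genes 2 were tested and not called. S100a8 and S100a9, defining genes of neutrophils, had no read in any green library at P0. Genes of the labelled Emx1 lineage were lower, with 6 of 8 falling and summed levels of 2018 to 2734 CPM in control-MADM against 726 to 832 CPM in cKO-Eed-MADM. For example, Neurod2 had a log2 fold change of -2.67 ± 0.20 and Neurod6 one of -2.38 ± 0.33. Of 4 interneuron genes, 3 fell, and the part of any of these changes in the levels of the 10 genes was not tested.

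At E16.5, 6 of the 10 genes passed the filter in green cells, all but Aif1, P2ry12, Ccl3 and Ccl4. With control-MADM and Eed-MADM libraries alone, 2 of the 10 genes passed it. Csf1r (0 and 68 reads in these paradigms) and Cx3cr1 (1 and 64 reads) passed it only through the cKO-Eed-MADM libraries. The counts and ranges below thus describe these 2 genes and are no test of them. The summed level was 5.87, 6.51 and 6.98 CPM in control-MADM, ran from 0.363 to 41.4 CPM in 5 Eed-MADM libraries, and was 51.0, 65.4, 17.5 and 17.9 CPM in cKO-Eed-MADM. The cKO-Eed-MADM and control-MADM libraries did not overlap. Csf1r and Cx3cr1 were called higher (adjusted p = 0.0243 and 0.0212), that is 2 of 6, where 6.16% of all genes tested were higher and 8.58% differed. Both were higher in every cKO-Eed-MADM library, as were 11.1% of genes tested. Csf1r had no read in the 3 control libraries, so with a floor of 3 reads over the group it was at least 40.8-fold higher in cKO-Eed-MADM (170 reads). Replicate 2 gave 99 of these reads, and the bound was 23.7-fold without it and 22.3-fold without control-MADM replicate 1. Cx3cr1 had 1 read in the control libraries and 128 in cKO-Eed-MADM, a ratio of 92.1 with a 95% exact counting interval of 16.2 to 3665. That ratio was 60.03 without cKO-Eed-MADM replicate 2 and 50.4 without control-MADM replicate 1, and without control-MADM replicate 3, which held the read, it was at least 21.2. Both calls were lost without any one of the 3 control libraries and without cKO-Eed-MADM replicate 2. Ccl3 and Ccl4 had no read in the 4 cKO-Eed-MADM libraries and the 3 control-MADM libraries. None of the 6 genes was called between Eed-MADM and control-MADM in edgeR (0.255% of all genes tested were), with 2 at an unadjusted p under 0.05 and 1 in DESeq2. Between cKO-Eed-MADM and Eed-MADM the counts were 0, 0 and 0, where edgeR called 7.04% of all genes tested.

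From E16.5 to P0 the changes were compared within each paradigm, with 8 of the 10 genes tested. Ccl3 passed the filter only through the cKO-Eed-MADM libraries of P0 (301 reads, against 61 in control-MADM and 21 in Eed-MADM at P0). Its calls below thus describe it and are no test of it. In cKO-Eed-MADM, 5 of the 8 genes were higher at P0, where 11.1% of all genes tested were higher and 21.5% differed. They were Cx3cr1 (log2 fold change 2.68 ± 0.91), Csf1r (2.83 ± 0.95), C1qb (4.09 ± 1.39), Tyrobp (2.92 ± 0.95) and Ccl3. Ccl3 went from no read to 301 reads and Ccl4, which was not tested, from no read to 217, at least 110-fold and 79.0-fold higher against the floor of 3 reads over the group. In control-MADM, 3 were called (Cx3cr1, Csf1r and Ccl3, adjusted p from 0.0388 to 0.0454), where 9.69% of all genes were higher and 16.9% differed. Csf1r rose there at least 14.2-fold and Ccl3 at least 10.7-fold, each from no read. Without control-MADM replicate 1 of E16.5 these bounds were 7.78-fold and 5.86-fold, and that of Ccl3 was 5.49-fold without replicate 5 of P0. The Ccl3 call in control-MADM was lost in DESeq2, with no filter on low counts and with the replicate block. It held in 19 of 29 fits with a single library left out. In Eed-MADM, 0 were called in edgeR and 0 in DESeq2, with 3 at an unadjusted p under 0.05, where 25.6% of all genes differed. Whether the mutant effect itself differed between P0 and E16.5 was tested by the interaction. None of the 8 genes passed for cKO-Eed-MADM, where edgeR called 1.85% of all genes, with 1 (Tyrobp, 3.04 ± 1.33, adjusted p = 0.274) at an unadjusted p under 0.05, and none in DESeq2. For Eed-MADM the counts were 0, 0 and 0, where edgeR called 0.0575% of all genes. Ccl3 had no read in green control-MADM or cKO-Eed-MADM cells at E16.5. Its interaction for cKO-Eed-MADM could thus not be estimated (SE 11715.5), and its lack of a call is no negative result. Csf1r had no read in control-MADM at E16.5, and its interaction for cKO-Eed-MADM was -4.05 ± 2.86. The call counts in control-MADM and cKO-Eed-MADM fell to 0 and 1 when a single library was left out, as given with the limits of the analysis.

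At E12.5 and E13.5 no gene of the 10 was called in green cells. At E12.5, 9 were tested and the edgeR count over all genes was also 0 (0.0%). With control-MADM and Eed-MADM libraries alone, 3 of the 10 genes passed the filter. The others tested, C1qc among them, passed it only through the cKO-Eed-MADM libraries. The counts and ranges below thus describe these genes and are no test of them. The counts at an unadjusted p under 0.05 were 6 of 9 for cKO-Eed-MADM minus control-MADM, 1 for Eed-MADM minus control-MADM and 6 for cKO-Eed-MADM minus Eed-MADM, and DESeq2 called 0 of the 10 in all 3 comparisons. The summed level was 2.18, 23.3, 70.3 and 216 CPM across the 4 cKO-Eed-MADM libraries and 0 to 12.8 CPM across the 5 control-MADM libraries. C1qc was higher in every cKO-Eed-MADM library, as were 1.17% of genes tested, with 87 reads against 0, at least 31.9-fold. Replicate 2 gave 53 of the 87 reads, and the bound was 16.3-fold without it. The 2 highest libraries differed in make-up. Replicate 2 had Csf1r at 49.6, C1qa at 44.2 and Ccl4 at 0 CPM, and replicate 3 had Csf1r at 4.39, C1qa at 0.488 and Ccl4 at 29.3 CPM. Their border-associated macrophage genes summed to 228 and 332 CPM, against 0.461 to 15.6 CPM in green control-MADM. Red blood cell genes summed to 10679 and 5797 CPM, against 2.76 to 1951 CPM. Meningeal genes were at 2015 and 593 CPM, against 27.2 to 937 CPM. The part of these other cells in the levels was not tested. At E13.5, 2 genes were tested (C1qb and Tyrobp). Neither was called by edgeR or DESeq2 in the 3 comparisons, with C1qb at an unadjusted p under 0.05 in 2 of them. EdgeR called 0.0372% of all genes for cKO-Eed-MADM minus control-MADM, 0.0223% for cKO-Eed-MADM minus Eed-MADM and 0.0% for Eed-MADM minus control-MADM, and the sum did not pass 40.0 CPM in any green library. P2ry12 had no read in 25 of the 27 libraries at E12.5 and in 14 of the 18 at E13.5.

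Red cells at P0 held more of these genes than green control-MADM cells, also where they were Eed+/+. The summed level was 148 and 454 CPM in red control-MADM, 93.0 and 89.8 CPM in red Eed-MADM and 638 and 449 CPM in red cKO-Eed-MADM. All 6 red libraries lay above all 5 green control-MADM libraries. Within their own paradigm, the red libraries of Eed-MADM lay inside the green range (1.26 to 162 CPM), while those of control-MADM and cKO-Eed-MADM lay above the green libraries. Red and green cells also carry chromosome 7 from opposite parents, on which Tyrobp lies, and this cannot be told apart from colour. With paradigm in the model, all 10 genes were higher in red than in green, with a median log2 fold change of 2.12 against -0.04 over all genes tested. Without both red libraries that stood apart the medians were 1.37 and -0.02. Only Ccl4 passed (3.74 ± 0.68, adjusted p = 0.0155), where 0.0212% of all genes tested were higher and 0.0423% differed, that is 6 of 14169. The call was lost without red control-MADM replicate 2, without red Eed-MADM replicate 2, with control-MADM alone, with the replicate block and without both red libraries that stood apart (0 of 10 genes called, 11 of all genes).

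The red libraries that stood apart held markers of other cells. The library labelled red cKO-Eed-MADM replicate 1 had Csf1r at 162, C1qa at 164 and Ccl4 at 124 CPM but no read of Tyrobp or Aif1. Its border-associated macrophage genes summed to 350 CPM, red blood cell genes to 2378, meningeal genes to 916, interneuron genes to 1649, and S100a8 and S100a9 to 78.8. Red control-MADM replicate 2 had red blood cell genes at 3529 CPM and border-associated macrophage genes at 143 CPM. Without them, control-MADM replicate 1 and cKO-Eed-MADM replicate 2 had sums of the 10 genes of 148 and 449 CPM, with border-associated macrophage genes at 92.3 and 12.8 CPM and red blood cell genes at 705 and 47.1 CPM. Stab1 (3.91 ± 0.79), Cxcl2 (4.13 ± 0.90) and Col1a1 (2.59 ± 0.58) had the next lowest adjusted p-values of the lists between red and green and did not pass (0.0518, 0.0757 and 0.0800). The part of these cells in the red levels was not tested.

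Among yellow cells at P0 the sum was 16.54 and 0.703 CPM in control-MADM, 30.3 and 78.2 CPM in Eed-MADM and 294 CPM in the one cKO-Eed-MADM library, each within the range of green cells of the same paradigm except the lowest. None of the 10 genes was called between yellow and green at P0 by edgeR or DESeq2, with 0 at an unadjusted p under 0.05, where edgeR called 0.0423% of all genes. At E16.5, red cells ranged widely, with sums of 122 and 5.26 CPM in control-MADM, 27.2 CPM in Eed-MADM and 0 and 156 CPM in cKO-Eed-MADM. None of 7 genes tested was called between red and green at E16.5 (0.105% of all genes were), 0 by DESeq2 and 0 at an unadjusted p under 0.05. The sum in yellow cells at E12.5 was 0 to 97.5 CPM in 4 control-MADM libraries, 0.693 to 48.2 CPM in 4 Eed-MADM libraries and 0 in the one cKO-Eed-MADM library. At E12.5, 0 of 9 were called between yellow and green by either tool, with 0 at an unadjusted p under 0.05, where edgeR called 0.0% of all genes. At E13.5 it was 0.210 CPM in yellow control-MADM, 5.17 and 5.06 CPM in yellow Eed-MADM and 42.3 and 0 CPM in yellow cKO-Eed-MADM, and no gene of the 10 reached the filter in the fit of colours.

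The genes most like the sum of the 10 across libraries were in part on the list of further microglia genes (5 of 10), and 1 was on the endothelial list. Over 65 libraries of E13.5, E16.5 and P0, with the mean of each age, paradigm and colour taken off, the log2 level of Laptm5 correlated best with the log2 sum of the 10 genes (Pearson r = 0.760). Fcer1g (0.722), Fcrls (0.680), Ptgs1 (0.604), Esam (0.586), Selenop (0.584), Ctss (0.580), Fcgr3 (0.576), Tmem119 (0.569) and B2m (0.569) came next among 15764 genes. Laptm5 and Ctss are lysosomal genes, Fcer1g and Fcgr3 belong to Fc receptors, and Esam is an endothelial adhesion gene. Of the 10 genes themselves, which are part of the sum, Csf1r had the highest r (0.811) and Aif1 the lowest (0.324), with Ccl3 and Ccl4 at 0.472 and 0.474. The libraries share depth and sorting, so these values describe the set and carry no p.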

How the data were processed

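Green, yellow and red MADM-labelled cells were sorted from papain-dissociated cortex with doublet exclusion, into lysis buffer at E12.5 and into RNA extraction buffer at later ages, and sequenced by Smart-Seq2. The authors aligned the reads to mm10 (GRCm38) with STAR and deposited whole-number counts of uniquely aligned reads per gene for each library, and the unstranded column was used here. No annotation release was given in the sources used here, and 53274 of the 53379 gene IDs matched GENCODE M21, which gave symbols, positions and exon lengths.

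Reads counted as unmapped, multimapping, ambiguous or outside genes were left out of library sizes (between 13.4% and 40.4% of uniquely aligned reads were not on a single gene). Libraries with at least 1000000 uniquely aligned reads at 60% or more of all reads were kept (92 of 116). CPM were scaled by TMM over all kept libraries (edgeR 4.0.16, R 4.3.3), and figures used log2(CPM + 1). Paradigms within an age (green cells), colours within an age (paradigm as covariate), and P0 against E16.5 with its interaction were fitted by edgeR's quasi-likelihood test on genes whose mean count exceeded 1 at E12.5 and 10 at the later ages, with Benjamini-Hochberg adjustment over all genes tested and a threshold of 0.05. DESeq2 1.42.0 and the other settings given with the limits were alternatives. Scripts were tested on simulated counts. The 10 genes and the marker lists were chosen with earlier results of these data known. Named were all 10 genes, list genes called where one of the 10 was called (at most 5 per list by adjusted p, and the 3 most abundant), and the 10 genes most correlated with the sum. Trem2, Atf3, Cxcl2, Mrc1, S100a8 and S100a9 were named after their values were seen. Some genes of the lists are not reported here. No libraries of the same age, paradigm and colour were duplicates by a chi-square test of counts, and libraries of different groups were not compared. Nothing in the labels says that replicates were separate litters, so p-values measure the spread between these samples. Floors of 3 reads and exact 95% intervals cover counting error only. Detection at E12.5 was limited by depth, with a median of 1719482 reads on genes against 5094115 at P0.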

Additional observations from a re-analysis of the deposited data

Results flagged for a closer look

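Single libraries stood far from the rest of their group by Dixon's 95% criterion in 8 of 41 sets of values examined. Chance gives about 1 in 20 for normally distributed values. The CPM were not transformed and several sets hold values of 0, so that rate need not hold here. All 8 were the highest value of their set. The sets overlap, since the sum holds its own genes, so the 8 are not independent. At P0 these were green control-MADM replicate 5, with a summed level of 64.0 CPM, P2ry12 at 4.17 CPM and C1qc at 20.2 CPM. Green Eed-MADM replicate 3 had Cx3cr1 at 35.7 CPM and P2ry12 at 19.8 CPM, and replicate 4 was the sole one of 9 with a read of Ccl4, at 0.848 CPM, where any read would have met the criterion beside 8 libraries at 0. At E12.5 the summed level of yellow control-MADM replicate 1 was 97.5 CPM and that of yellow Eed-MADM replicate 2 was 48.2 CPM, each the highest of 4.

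Among libraries outside the read limits, 2 with at least 10 reads of these genes lay above all control-MADM libraries of the same age and colour. Yellow cKO-Eed-MADM replicate 1 at P0 had a summed level of 492 CPM from 2329 reads in 6 of the 10 genes, against at most 15.8 CPM in 2 control libraries. Green cKO-Eed-MADM replicate 1 at E12.5 had 178 CPM from 157 reads in 5 of the genes, against at most 13.4 CPM in 5 control libraries. These CPM were not scaled by TMM.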

How the results depend on the processing

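Of the numbers of the 10 genes called and their summed levels, 570 of 610 values under alternatives stayed within 1.5 times the main count or within 1 SD, and no called gene changed direction. The 610 include the comparisons of colours at E13.5, where 0 of the 10 genes were tested in the main fit. Counts there stayed at 0 with each of 18 libraries left out, which says nothing about robustness. Main counts of 0 also stayed at 0 under most settings in green cells at E12.5 and E13.5, in the interactions and for yellow minus green. In these comparisons edgeR called at most 1.85% of all genes tested, so such values say little about robustness. With no filter on low counts, the counts were 2 (cKO-Eed-MADM minus control-MADM) and 1 (cKO-Eed-MADM minus Eed-MADM) at E12.5, 1 (Eed-MADM minus control-MADM) and 1 (red minus green) at E16.5, and 0 and 2 for P0 minus E16.5 in control-MADM and cKO-Eed-MADM. DESeq2 called 1 for Eed-MADM minus control-MADM at E16.5 and 2 for red minus green at P0. Red minus green at P0 fell to 0 with control-MADM alone and without the 2 red libraries that stood apart, a setting chosen after seeing the data. Without the read limits the mean summed level in green cells at E13.5 was 24.0 CPM in control-MADM and 46.8 CPM in Eed-MADM, and without TMM that of red Eed-MADM at P0 was 93.8 CPM. The causes were not tested, save that leaving out the filter raises the number of genes tested.

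Leaving out each library in turn gave 6 to 9 genes for cKO-Eed-MADM minus control-MADM at P0, 2 to 8 for cKO-Eed-MADM minus Eed-MADM (2 without cKO-Eed-MADM replicate 4), 0 to 1 for Eed-MADM minus control-MADM (1 without Eed-MADM replicate 1) and 0 to 1 for red minus green. It gave 0 to 2 for cKO-Eed-MADM minus control-MADM at E16.5. For P0 minus E16.5 it gave 0 to 3 in control-MADM (0 without any of the 3 libraries of E16.5, 1 without P0 replicate 1, 2 or 5), 0 to 3 in Eed-MADM (1 to 3 without E16.5 replicate 1 or 4 or P0 replicate 1, 2 or 6) and 1 to 5 in cKO-Eed-MADM (1 without E16.5 replicate 1, 3 or 4 or P0 replicate 3 or 4).

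Whether replicate numbers pair the samples was not settled. Same-numbered samples deviated together (correlation over 0.1) in 14 of 35 pairs at E12.5 and 2 of 31 at E13.5. The counts were 4 of 24 at E16.5 and 10 of 62 at P0. In the same order of ages, the median correlation of same-numbered pairs was 0.070, -0.027, 0.022 and 0.039. For the other pairs it was -0.003, 0.020, -0.005 and -0.008, and their share over 0.1 was not counted. Pairs of colours within a paradigm were not counted apart from pairs across paradigms. With the replicate block, the counts were 6 for cKO-Eed-MADM minus control-MADM and 6 for cKO-Eed-MADM minus Eed-MADM at P0 (C1qa lost and C1qb gained), 0 for red minus green at P0, and 1 and 3 for P0 minus E16.5 in control-MADM and cKO-Eed-MADM.

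Over all genes tested, the number called moved by over 1.5 times in several comparisons. At E12.5 it went from 0 to 6 (DESeq2), 117 (no filter) and 9 (block) for cKO-Eed-MADM minus control-MADM, and from 0 to 1, 175 and 5 for cKO-Eed-MADM minus Eed-MADM. At E13.5 it went from 5 to 287 (DESeq2), 250 (no filter) and 243 (no read limits) for cKO-Eed-MADM minus control-MADM, from 0 to 40, 47 and 415 for Eed-MADM minus control-MADM and from 3 to 56, 38 and 8 for cKO-Eed-MADM minus Eed-MADM. Eed-MADM minus control-MADM went from 34 to 231 (DESeq2) and 272 (no filter) at E16.5, and from 248 to 608 (DESeq2) and 101 (block) at P0. The comparison of cKO-Eed-MADM with Eed-MADM at E16.5 went from 940 to 1443 with no filter. DESeq2 moved yellow minus green at P0 from 6 to 382, red minus green from 6 to 27 at P0 and from 14 to 23 at E16.5 (55 with no filter), and the interactions from 258 to 468 for cKO-Eed-MADM and from 8 to 109 for Eed-MADM.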
